A study of Mus musculus with 6 samples.

Results

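The genes described here are 60 that act in mitosis: cyclins and kinases of mitotic entry, condensins, kinetochore and checkpoint proteins, spindle motors, and proteins of anaphase and cytokinesis. They were taken as a list of gene symbols from the 43432 genes of the deposited table, and each of the 60 matched 1 Ensembl gene. The libraries are bulk RNA-seq of CD11b+ cells, which are mainly myeloid cells, obtained by sorting spleen cells of 6 Rag1 KO mice on the C57BL/6J strain. Such mice make no B or T lymphocytes of their own, so those present were the ones transferred. In the 3 WT iGB6 recipients, the transferred B cells were wild type, had been expanded in the iGB culture system, and carried a pMSCV-IRES2-eGFP retrovirus with the Il6 gene, which encodes the cytokine IL-6. In the 3 IgHMOG iGBGFP recipients, the B cells were IgHMOG, a line whose immunoglobulin heavy chain recognises myelin oligodendrocyte glycoprotein (MOG), and carried the empty pMSCV vector. The name of this group also includes iGB and GFP, and its times in culture and from transduction to loading match those of WT iGB6. Neither the iGB culture nor GFP is therefore taken here as a difference between the groups. In both groups the B cells were loaded with MOG protein and given together with 2D2 CD4+ T cells, which carry a receptor for MOG, and the spleens were taken on day 8 after transfer. B-cell genotype and vector changed together, so neither can be told apart from the other. In each group the first replicate was the only female and the other two were males. Every library came from its own mouse, and the sources used here do not give ages. Itgam, which encodes CD11b, stood at 6451 to 10606 normalized counts in the IgHMOG iGBGFP libraries and 9561 to 12352 in the WT iGB6 libraries. Of the other markers listed for these cells, Ptprc and Fcer1g overlapped between the groups. Tyrobp was lower in WT iGB6 without overlap, at 10085 to 15551 in IgHMOG iGBGFP and 7197 to 9164 in WT iGB6. By the limma test described below 0 of these 4 markers passed (2 had an unadjusted p under 0.05).

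In mitosis, cyclin B bound to the kinase CDK1 drives the cell into division, condensins compact the chromosomes, and kinetochores built on the centromeres attach them to spindle microtubules. The spindle assembly checkpoint holds the anaphase-promoting complex inactive until every kinetochore is attached. The complex, with CDC20, then marks cyclin B and securin for destruction, separase cuts cohesin, and the central spindle guides cytokinesis. Most of the genes are transcribed in G2 and mitosis, so their RNA is abundant in cycling cells and low in mature myeloid cells such as neutrophils, which have left the cell cycle. In the myeloid lineage, dividing cells are chiefly progenitors and precursors.

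Transcripts of most mitotic genes were more abundant in CD11b+ cells of the WT iGB6 recipients. Of the 59 genes tested (mean normalized count of at least 10), 34 were higher in WT iGB6 and 1, Pttg1, was lower, by limma with group and sex as terms (Benjamini-Hochberg adjusted p under 0.05 over all 9923 genes tested). The remaining 24 did not pass. Over all genes tested, 2.75% were called higher and 3.37% lower in that comparison, or 6.12% in either direction. The median log2 fold change, WT iGB6 over IgHMOG iGBGFP on the log2(normalized count + 1) scale, was 1.04 for the 59 genes and 0.02 for all genes tested. The values ran from -1.03 for Pttg1 to 1.80 for Kif18b, and 56 of 59 were above 0. The 60th gene, Nek2, a kinase of centrosome separation, stayed under the filter with 5.11, 4.31 and 2.00 normalized counts in IgHMOG iGBGFP and 10.7, 9.47 and 6.75 in WT iGB6. A count of 0 allows 2.37 to 3.56 in these libraries, so the WT iGB6 values lay above that level and the lowest IgHMOG iGBGFP value below it. Normalized counts of WT iGB6 lay above those of IgHMOG iGBGFP without overlap for 33 of the 59, against 12.2% of all genes tested. They did so for Nek2 as well, which was not tested. The reverse held for Pttg1, against 11.4% of all genes tested.

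The WT iGB6 mice differed among themselves. Summed over the 60 genes, the normalized counts were 12435, 9883 and 9082 in IgHMOG iGBGFP replicates 1, 2 and 3 and 25488, 19897 and 12814 in WT iGB6 replicates 1, 2 and 3. The groups did not overlap, but WT iGB6 replicate 3 stood close to the highest IgHMOG iGBGFP library. As a share of all normalized counts of a library, the 60 genes made up 0.187%, 0.173% and 0.175% in IgHMOG iGBGFP and 0.361%, 0.333% and 0.178% in WT iGB6, and on this scale WT iGB6 replicate 3 lay within the range of the other group. Among the 34 genes called higher, WT iGB6 replicate 1 was the highest library for 33 and WT iGB6 replicate 3 the lowest of its group for 33. IgHMOG iGBGFP replicate 1, the female of the other group, was likewise the highest of its group for 33. For 27 of the 34 the groups did not overlap, and for the other 7 WT iGB6 replicate 3 fell below the highest IgHMOG iGBGFP library. In a bulk sample, more dividing cells and more RNA of these genes per cell cannot be told apart.

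**Figure D1:**
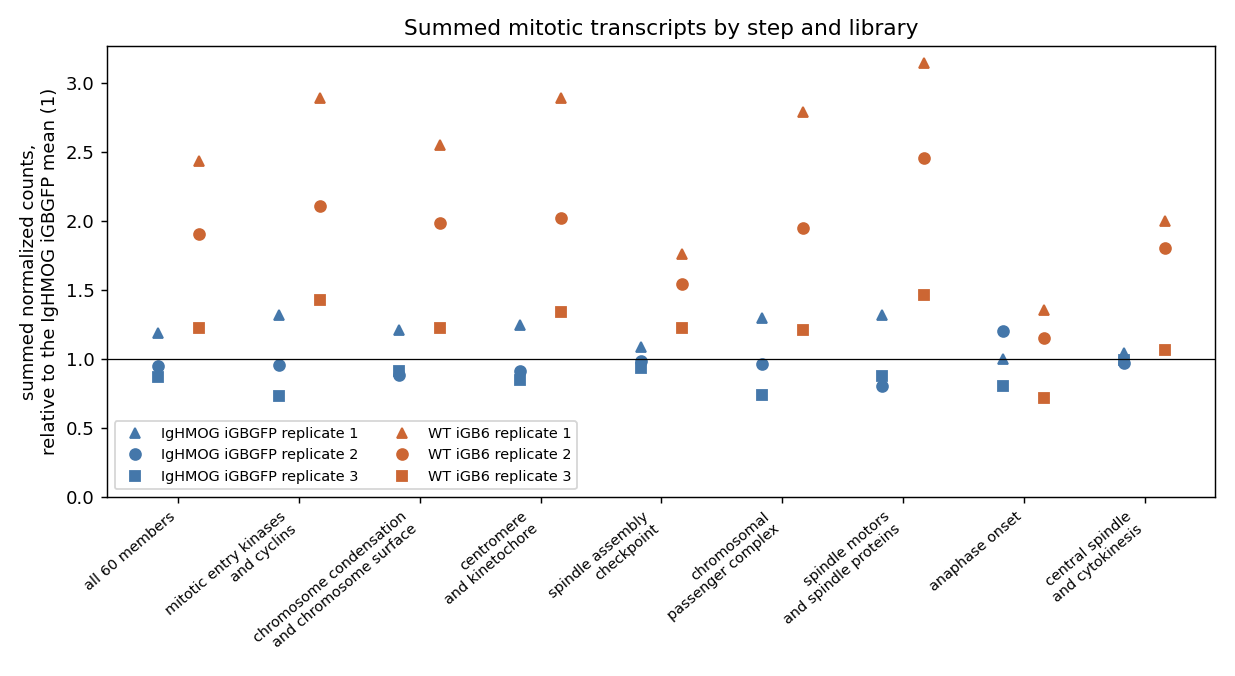
Summed normalized counts of the mitotic genes, for all 60 and for each of 8 mitotic steps, divided by the mean of the 3 IgHMOG iGBGFP libraries (line at 1). Each point is 1 library, with triangles for the females and circles and squares for the males. WT iGB6 replicate 1 and replicate 2 stand highest in every step but anaphase onset, and replicate 3 lies nearer to IgHMOG iGBGFP.

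The number of calls rested on the model. Without the sex term limma called 0 of the 59 genes higher and 0.0605% of all genes (46 had an unadjusted p under 0.05, against 9.82% of all genes tested). On the recovered reads edgeR called 35 of them higher, against 2.56% of all genes, and DESeq2 called 41, against 4.25%. In the authors' deposited table there were 42, against 3.89% of its genes. Of the 34 genes called by limma, 34, 33 and 33 were among these. Leaving out 1 library at a time, limma called 4, 0 and 1 higher without IgHMOG iGBGFP replicates 1, 2 and 3, against 0.665%, 0.0302% and 0.121% of all genes. Without WT iGB6 replicates 1, 2 and 3 it called 4, 28 and 47, against 0.635%, 4.13% and 3.5%, and with males only 4, against 0.625%. Because the sex term was kept, the fits without either replicate 1, the females, take the group difference from the males alone. They are therefore not separate from the fit with males only. Scaling by the total reads of each library moved the median log2 fold change of all genes from 0.02 to -0.19 and that of the mitotic genes to 0.84, and left 6 calls, against 0.826% of all genes. Its split over all genes was 82 higher and 352 lower, against 273 and 334. In each of these fits on the 59 genes, 55 to 58 of them had a log2 fold change above 0.

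Most markers of neutrophil precursors were also higher in WT iGB6. Of 12 such markers 11 were matched and 10 tested, of which 8 were higher and 0 lower in WT iGB6, with a median log2 fold change of 2.04. Myeloperoxidase, encoded by Mpo, stood at 634, 521 and 222 normalized counts in IgHMOG iGBGFP and 8033, 6272 and 1696 in WT iGB6 (limma adjusted p = 0.00622). Neutrophil elastase, encoded by Elane, stood at 688, 648 and 246 against 5253, 4171 and 1134 (limma adjusted p = 0.0167). For both genes WT iGB6 replicate 3 was the lowest of its group, as it was for 33 of the 34 mitotic genes called higher. The called markers Prtn3, Ctsg, Ms4a3, Fcnb and Prss57 shared this. Cebpe, also called, was lowest in WT iGB6 replicate 2, at 1208, 560 and 886 in WT iGB6 replicates 1, 2 and 3. Summed over the 11 markers, the counts were 12709 to 19260 in IgHMOG iGBGFP and 18909 to 34520 in WT iGB6 and overlapped, a sum in which Srgn and Ctsc held a large share. Neither of those 2 passed: Srgn had a log2 fold change of -1.36 (limma adjusted p = 0.0776), with the lower values in WT iGB6, and Ctsc one of 0.36. Of 9 erythroid markers 0 passed in limma, edgeR or DESeq2 (5 had an unadjusted limma p under 0.05), and their summed counts overlapped at 668 to 3054 against 1842 to 3829. The erythroid markers had a median log2 fold change of 0.93, with 8 of 9 above 0. Their median log2 difference was -0.45 in the female pair and 1.50 in the males, where that of the mitotic genes was 1.08 and 0.99. Of 3 T-cell and 3 B-cell markers tested 0 passed with any of these tools (1 and 2 at an unadjusted limma p under 0.05). Cd3e was at 4 normalized counts or less in IgHMOG iGBGFP and at 0 in all 3 WT iGB6 libraries, and the B-cell factor Pax5 was at 0 in 5 of the 6 libraries. Other T-cell markers were measured in every library, with Cd3d at 47.0 to 132 against 63.1 to 85.5, and the list summed to 129 to 216 in IgHMOG iGBGFP and 94.7 to 239.6 in WT iGB6, which overlap. The part that the markers of these other cells play in the mitotic result was not tested.

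Stretches before the RefSeq start are shown for 6 of the genes because promoters of G2 and mitotic genes are known for a shared arrangement. It consists of CCAAT boxes bound by the factor NF-Y, often spaced a few helical turns apart. These lie upstream of a cell cycle genes homology region (CHR) bound by the MuvB complex. The sequences are the 150 bases before the RefSeq start of each gene (GRCm38.p6, all on the minus strand, written 5′ to 3′ in the direction of transcription). Capitals mark CCAAT or its reverse complement ATTGG, and the CHR letters TTTGAA or TTCGAA or their reverse complements TTCAAA and TTCGAA.
Ccnb1, chr13:100786487-100786636: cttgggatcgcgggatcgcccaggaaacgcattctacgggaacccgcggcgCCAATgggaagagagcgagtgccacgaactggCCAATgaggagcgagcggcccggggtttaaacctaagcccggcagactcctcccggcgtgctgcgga
Ccnb2, chr9:70421555-70421704: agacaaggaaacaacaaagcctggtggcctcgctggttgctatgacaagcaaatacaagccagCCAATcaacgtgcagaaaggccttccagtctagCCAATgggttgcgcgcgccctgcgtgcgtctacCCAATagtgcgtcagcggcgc
Cdk1, chr10:69352913-69353062: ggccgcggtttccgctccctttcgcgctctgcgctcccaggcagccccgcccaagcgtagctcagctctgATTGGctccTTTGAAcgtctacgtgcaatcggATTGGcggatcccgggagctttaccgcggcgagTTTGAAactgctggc
Top2a, chr11:99024190-99024339: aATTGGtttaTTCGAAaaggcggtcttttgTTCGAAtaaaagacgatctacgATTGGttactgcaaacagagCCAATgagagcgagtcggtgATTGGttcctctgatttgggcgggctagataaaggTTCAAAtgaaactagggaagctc
Cdc20, chr4:118437344-118437493: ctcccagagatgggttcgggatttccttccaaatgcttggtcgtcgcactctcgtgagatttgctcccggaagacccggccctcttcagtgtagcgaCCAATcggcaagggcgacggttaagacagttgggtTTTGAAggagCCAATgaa
Pttg1, chr11:43425982-43426131: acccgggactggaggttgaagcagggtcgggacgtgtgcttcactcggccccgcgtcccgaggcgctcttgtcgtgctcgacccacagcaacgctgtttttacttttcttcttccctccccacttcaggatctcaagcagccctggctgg
Within these stretches the first bases of neighbouring CCAAT boxes were 32 apart in Ccnb1 and in Cdk1, 33 and 33 in Ccnb2, 45 in Cdc20, and 51, 20 and 20 in Top2a. The stretch of Pttg1, the gene that was lower, held neither motif. Its RefSeq start lies 270 bases downstream of the GENCODE start, so the window depends on the start used. By GENCODE this stretch, and the longer window of Pttg1 described next, lie wholly within the gene (chr11:43420250-43426251). The bases before the GENCODE start of Pttg1 were not searched. Lacking both motifs was not particular to Pttg1. Birc5, Mad2l1, Ncaph, Nuf2, Nusap1, Plk4 and Tacc3, all called higher, held neither motif in the longer windows described next. Whether the motifs go with the direction of change was not tested.

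RefSeq windows of 250 bases before to 50 bases after the start were matched for 51 of the 60 genes. Those without a window were Aurkb, Ccna2, Cdc25c, Incenp, Kif20a, Smc4, Spc24, Tpx2 and Zwilch. On either strand, the CHR letters occurred in 38 of the 51 windows (74.5%), against 18.4% of 20557 gene windows of the same length and 14.6% of the 7761 windows of tested genes. CCAAT occurred in 37 (72.5%) against 38.2%, and at least 2 CCAAT boxes in 24 (47.1%) against 12.7%. Both features together, a CHR and at least 2 CCAAT boxes, were found in 22 windows (43.1%) against 2.33%. Among the 31 windows of genes called higher, 22 (71.0%) held a CHR. These are matches of letters and not measured binding sites.

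Mitotic entry kinases and cyclins were higher in 5 of the 9 tested, Ccnb1, Ccnb2, Aurka, Plk1 and Plk4, with a median log2 fold change of 1.11. Ccnb2 encodes cyclin B2 (chr9:70407692-70421547) and was the most abundant of them. It stood at 486, 308 and 269.9 normalized counts in IgHMOG iGBGFP and 940.3, 688 and 668 in WT iGB6. Every WT iGB6 library lay above every IgHMOG iGBGFP library, with means of 355 ± 115 and 766 ± 152 (SD, n = 3), a log2 fold change of 1.14 (SE 0.17) and a limma adjusted p of 0.0108. Ccnb1, which encodes cyclin B1, stood at 154, 122 and 103 against 430.4, 347 and 201. Those groups did not overlap either (log2 fold change 1.31, SE 0.23, limma adjusted p = 0.0174). Counts per kilobase of annotated exon put Ccnb2 well above Ccnb1, at 232 against 30.0 in IgHMOG iGBGFP and 500 against 77.3 in WT iGB6. In WT iGB6, Ccnb2 was the highest of the 60 genes per kilobase.

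Their partner kinase did not pass. Cdk1 stood at 147, 129 and 69.0 normalized counts in IgHMOG iGBGFP and 314, 257 and 144 in WT iGB6, where replicate 3 fell just below the highest IgHMOG iGBGFP library (log2 fold change 1.04, 95% interval 0.40 to 1.68, limma adjusted p = 0.0600). The authors' deposited table gives Cdk1 an adjusted p of 0.0178. Plk1, a kinase that acts from mitotic entry to cytokinesis, stood at 275, 168 and 149.9 against 697, 455 and 228 and was called with overlapping groups (log2 fold change 1.12, limma adjusted p = 0.0339). Aurka, which matures centrosomes, had a log2 fold change of 1.11 with no overlap. Plk4, the kinase that starts centriole duplication, had 1.44 with overlap, since female IgHMOG iGBGFP replicate 1 stood above both male WT iGB6 libraries. The CDK1-activating phosphatase genes Cdc25b and Cdc25c had log2 fold changes of -0.22 and 0.93 and did not pass (limma adjusted p = 0.812 and 0.161). Ccna2, the cyclin A of S phase and G2, was low, at 10 to 44.8 normalized counts in IgHMOG iGBGFP and 28.1 to 40.3 in WT iGB6, and did not pass (log2 fold change 0.46, 95% interval -0.62 to 1.53).

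Chromosome condensation and chromosome surface genes were higher in 5 of 7, with a median log2 fold change of 0.95. Top2a, the topoisomerase that untangles sister DNA, had the highest counts, at 664, 501 and 569 in IgHMOG iGBGFP and 1723, 1357 and 712 in WT iGB6. The groups did not overlap, though WT iGB6 replicate 3 was close to IgHMOG iGBGFP replicate 1 (means 578 ± 81.8 and 1264 ± 512, SD, n = 3, log2 fold change 1.04, SE 0.24, limma adjusted p = 0.0373). Ncaph, the kleisin of condensin I, stood at 181, 94.9 and 119.95 against 403, 264 and 171 (log2 fold change 1.04, limma adjusted p = 0.0295). Mki67, the proliferation antigen that coats mitotic chromosomes, stood at 453, 279 and 236 against 762, 616 and 424 (log2 fold change 0.91, limma adjusted p = 0.0303). In both genes WT iGB6 replicate 3 lay below IgHMOG iGBGFP replicate 1, the female. The other condensin I subunits Ncapg and Ncapd2 were higher by log2 fold changes of 1.19 and 0.90. The ATPase subunits Smc2 and Smc4, which condensin I shares with condensin II, had 0.95 and 0.48 and did not pass (limma adjusted p = 0.0517 and 0.134).

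**Figure D2:**
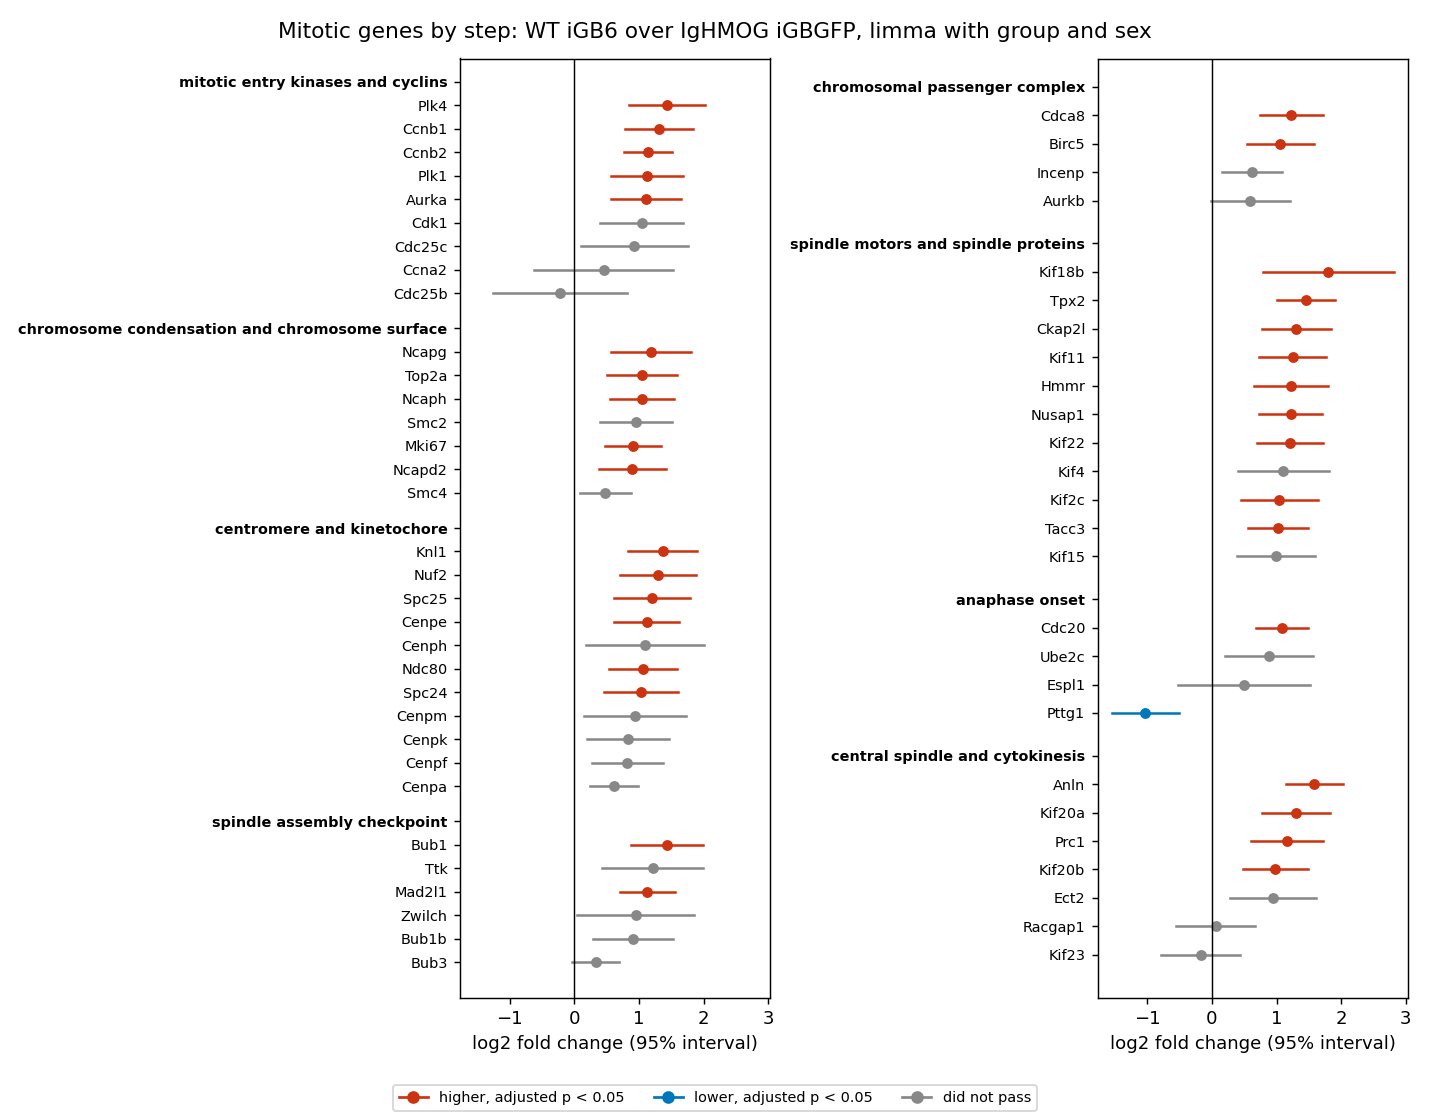
Log2 fold change of the 59 tested genes by mitotic step, WT iGB6 over IgHMOG iGBGFP, from limma with group and sex. Points are estimates, bars are 95% intervals, red marks genes called higher, blue the gene called lower and grey those that did not pass. Most points lie near 1, and Pttg1 at -1.03, Cdc25b at -0.22 and Kif23 at -0.18 lie below 0.

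Centromere and kinetochore genes were higher in 6 of 11, with a median log2 fold change of 1.06. The calls fell on the outer, microtubule-binding layer, but Cenph, Cenpk and Cenpm of the inner kinetochore had low counts. All 4 subunits of the NDC80 complex, which grips microtubules, were called: Nuf2 at 1.29, Spc25 at 1.20, Ndc80 at 1.06 and Spc24 at 1.04. Knl1, the scaffold that recruits checkpoint proteins, had the smallest p of the step and stood at 121, 47.4 and 65.0 normalized counts in IgHMOG iGBGFP and 228, 183 and 157 in WT iGB6 (log2 fold change 1.37, SE 0.24, limma adjusted p = 0.0167). Cenpe, a kinesin that moves chromosomes to the spindle equator, stood at 148, 99.2 and 94.0 against 312, 272 and 169 (log2 fold change 1.12, SE 0.22, limma adjusted p = 0.0244). Neither gene overlapped between the groups. Cenpa, the histone H3 variant that marks centromeres, was the most abundant of the step and did not pass, at 372, 269 and 258 against 596, 425 and 370.1 (log2 fold change 0.62, 95% interval 0.24 to 0.99, limma adjusted p = 0.0573). The inner kinetochore genes Cenph, Cenpk and Cenpm and the large fibrous-corona protein gene Cenpf had log2 fold changes of 1.09, 0.83, 0.94 and 0.82 and limma adjusted p-values of 0.138, 0.111, 0.139 and 0.0730. No difference between the outer and inner layers was tested.

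In the spindle assembly checkpoint 2 of 6 genes were called higher, with a median log2 fold change of 1.04. Bub1, a kinase that binds KNL1, stood at 81.8, 57.8 and 84.0 normalized counts in IgHMOG iGBGFP and 277, 209 and 139 in WT iGB6 (log2 fold change 1.44, SE 0.25, limma adjusted p = 0.0167). Mad2l1, which encodes the MAD2 protein that sequesters CDC20, stood at 169.8, 116 and 102 against 321, 273 and 243 (log2 fold change 1.13, SE 0.19, limma adjusted p = 0.0151). The lowest WT iGB6 library lay above the highest IgHMOG iGBGFP library for both. Bub3, whose protein also works outside mitosis, was the most abundant, at 1203, 1206 and 1067 against 1650.5, 1445 and 1287. Its groups did not overlap, but the difference was small and did not pass (log2 fold change 0.33, 95% interval -0.03 to 0.69, limma adjusted p = 0.245). Ttk, the kinase at the head of the checkpoint, Bub1b, which encodes BUBR1, and Zwilch, a subunit of the kinetochore RZZ complex, had log2 fold changes of 1.21, 0.91 and 0.95 and did not pass (limma adjusted p = 0.0672, 0.0807 and 0.183). DESeq2 and the authors' deposited table each called 4 of these 6 genes.

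The chromosomal passenger complex corrects wrong attachments and later acts at the midzone, and 2 of its 4 genes were called higher. Cdca8, which encodes borealin, stood at 328, 229 and 175 normalized counts in IgHMOG iGBGFP and 926, 539 and 343 in WT iGB6 (log2 fold change 1.23, SE 0.22, limma adjusted p = 0.0174). Birc5, which encodes survivin, stood at 281, 231 and 143 against 595, 463 and 308 (log2 fold change 1.06, SE 0.23, limma adjusted p = 0.0327). Both targeting subunits were separated between the groups, if narrowly, with WT iGB6 replicate 3 just above IgHMOG iGBGFP replicate 1. The kinase gene Aurkb and the scaffold gene Incenp had log2 fold changes of 0.60 and 0.62, overlapped between the groups, and did not pass (limma adjusted p = 0.216 and 0.102).

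Spindle motors and spindle proteins had the highest share of calls among the 8 steps, 9 of 11, with a median log2 fold change of 1.22, though steps were not tested against each other. Tpx2, which activates Aurora A and nucleates microtubules around chromosomes (chr2:152847964-152895321), stood at 303, 159 and 187 normalized counts in IgHMOG iGBGFP and 780.2, 603 and 397 in WT iGB6. The groups did not overlap, with means of 216 ± 76.4 and 593 ± 192 (SD, n = 3), a log2 fold change of 1.45 (SE 0.20) and a limma adjusted p of 0.00918. Nusap1, a microtubule bundler, stood at 251, 143 and 159 against 586, 455 and 272 (log2 fold change 1.22, limma adjusted p = 0.0174). Tacc3, which links spindle microtubules, was the most abundant of the step at 386, 298 and 248 against 839, 672 and 424 (log2 fold change 1.02, limma adjusted p = 0.0259). Neither of these overlapped between the groups. The bipolar kinesin gene Kif11 had a log2 fold change of 1.25, and the spindle protein genes Ckap2l and Hmmr had 1.31 and 1.23. The chromokinesin gene Kif22 and the microtubule-depolymerising kinesin gene Kif2c had 1.20 and 1.04. All 5 were called higher, Kif2c with overlapping groups.

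Kif18b had the largest fold change of the 59 genes tested and the lowest counts, at 8.18, 3.45 and 2.00 normalized counts in IgHMOG iGBGFP and 33.2, 12.6 and 10.1 in WT iGB6. This kinesin gene passed the filter only through WT iGB6, and 2 of its IgHMOG iGBGFP values lie near the level that a count of 0 allows (log2 fold change 1.80, SE 0.45, limma adjusted p = 0.0456). The authors' deposited table gives it an adjusted p of 0.0741 and DESeq2 one of 0.0536. Kif15, which backs up KIF11, and the chromokinesin gene Kif4 had log2 fold changes of 0.99 and 1.11 and did not pass (limma adjusted p = 0.0564 and 0.0645).

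**Figure D3:**
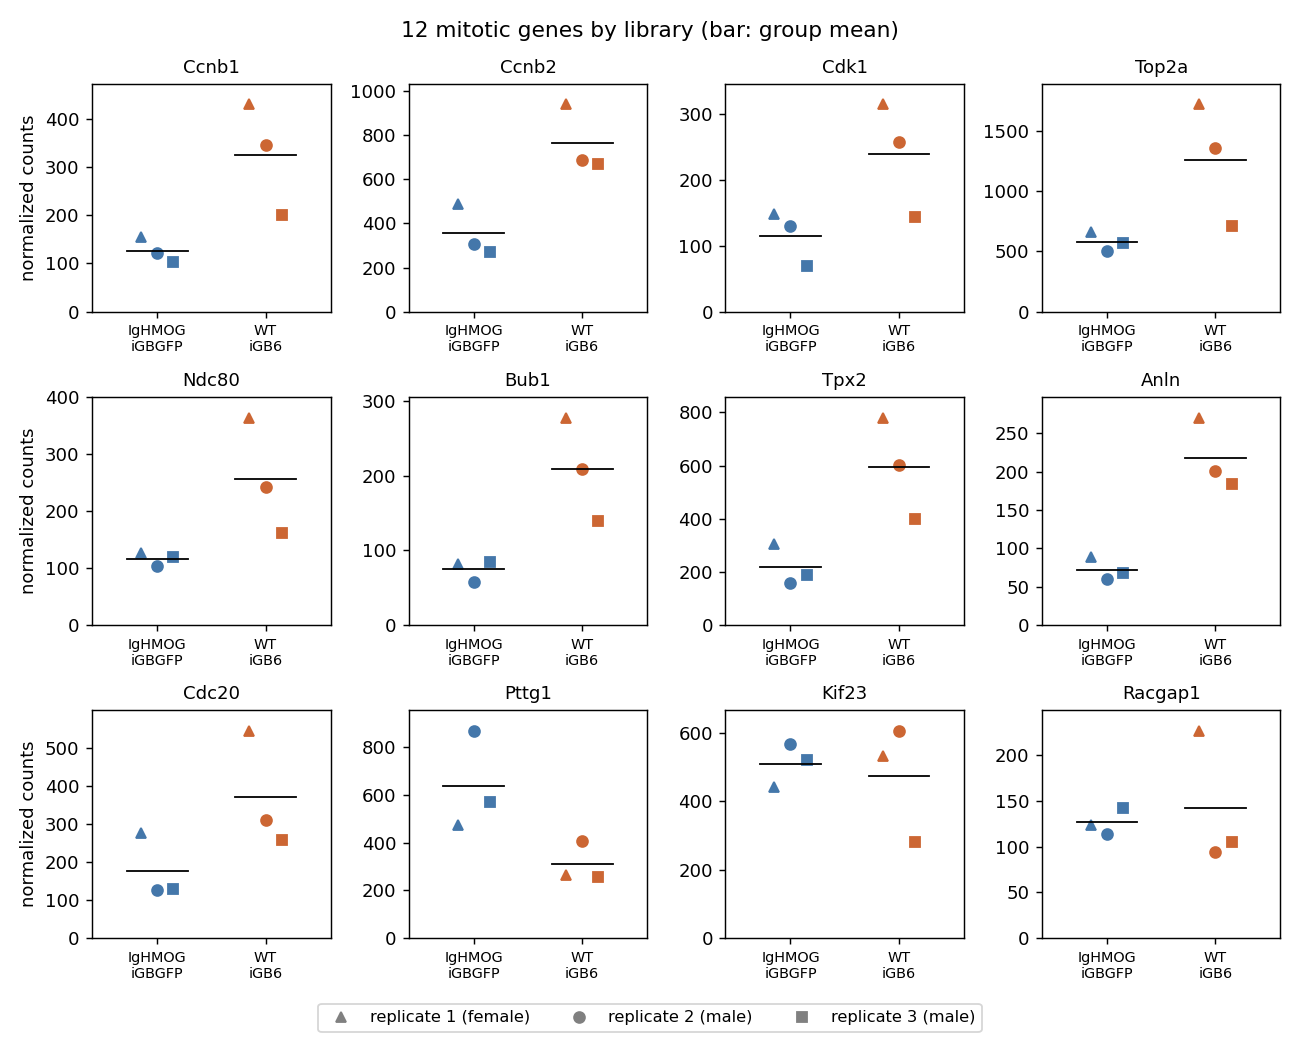
Normalized counts of 12 mitotic genes in each library, with a bar at each group's mean and every axis starting at 0. Triangles are the female replicate 1 of each group, circles replicate 2 and squares replicate 3. Pttg1 is the panel with WT iGB6 below IgHMOG iGBGFP in every library, and Kif23 and Racgap1 overlap widely.

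Genes of anaphase onset did not move together. Cdc20, the activator of the anaphase-promoting complex, was higher in WT iGB6, at 277, 126 and 128 normalized counts in IgHMOG iGBGFP and 544, 309 and 259 in WT iGB6 (log2 fold change 1.09, SE 0.18, limma adjusted p = 0.0137). WT iGB6 replicate 3 lay below the female IgHMOG iGBGFP library, and each WT iGB6 library lay above the IgHMOG iGBGFP libraries of its own sex. Ube2c, the conjugating enzyme of the same complex, stood at 276, 256 and 129 against 586, 439.7 and 225 and did not pass (log2 fold change 0.89, 95% interval 0.21 to 1.56, limma adjusted p = 0.110). Espl1, which encodes separase, was low, at 20.7 to 26.6 against 14.6 to 59.2, and did not pass (log2 fold change 0.49, limma adjusted p = 0.551).

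Pttg1 encodes securin, the inhibitor that holds separase until anaphase (chr11:43420250-43426251). It was lower in WT iGB6, at 473, 867 and 571 normalized counts in IgHMOG iGBGFP and 263, 407 and 256 in WT iGB6. Every WT iGB6 library was below every IgHMOG iGBGFP library, with means of 637 ± 205 and 309 ± 84.8 (SD, n = 3), a log2 fold change of -1.03 (SE 0.23, 95% interval -1.54 to -0.51) and a limma adjusted p of 0.0339. The authors' deposited table gives a log2 fold change of -0.94 and an adjusted p of 0.0029. The female pair differed by -0.84 and the males by -1.12 on the log2 scale. Per kilobase of exon Pttg1 was the highest of the 60 genes in IgHMOG iGBGFP, at 318, and the seventh in WT iGB6, at 154. No other annotated gene shares its exons. The call was lost without the sex term (limma adjusted p = 0.122), with males only, and without any 1 of the 3 IgHMOG iGBGFP libraries or WT iGB6 replicate 1 (limma adjusted p = 0.0891 to 0.196), with the log2 fold change between -1.17 and -0.83. The fits without either replicate 1 rest on the males alone, so they are not separate from the fit with males only.

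Central spindle and cytokinesis genes were higher in 4 of 7, with a median log2 fold change of 0.98 and a wide spread. Anln encodes anillin, the scaffold of the contractile ring (chr9:22332012-22389188), and had the smallest p of the 60 genes. It stood at 89.0, 59.5 and 68.0 normalized counts in IgHMOG iGBGFP and 270.3, 200.5 and 183 in WT iGB6. Every WT iGB6 library lay well above every IgHMOG iGBGFP library (means 72.2 ± 15.2 and 218 ± 46.1, SD, n = 3, log2 fold change 1.58, SE 0.20, limma adjusted p = 0.00534). Kif20a, the kinesin that carries the passenger complex to the midzone, stood at 205, 112 and 159.9 against 487, 439 and 261 with no overlap (log2 fold change 1.30, SE 0.24, limma adjusted p = 0.0182). Exons of Cdc23 on the opposite strand cover 29.3% of the exonic bases of Kif20a, so some of its reads may belong to that gene. Prc1, which crosslinks midzone microtubules, and the kinesin gene Kif20b were higher by log2 fold changes of 1.16 and 0.98. Ect2, the exchange factor that activates RhoA at the cleavage furrow, had 0.94 and did not pass (limma adjusted p = 0.0898).

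Both subunits of centralspindlin, the complex that recruits ECT2 to the midzone, had log2 fold changes near 0. Kif23, its kinesin, had the highest counts of the step, at 442, 567 and 521 in IgHMOG iGBGFP and 532, 605 and 280.1 in WT iGB6. The WT iGB6 libraries lay on both sides of the IgHMOG iGBGFP range (means 510 ± 63.1 and 473 ± 171, SD, n = 3, log2 fold change -0.18, 95% interval -0.79 to 0.44, limma adjusted p = 0.738). Racgap1, its GTPase-activating subunit, stood at 124, 114 and 142 against 226, 94.7 and 105 (log2 fold change 0.06, 95% interval -0.55 to 0.66, limma adjusted p = 0.925). The upper bounds of both intervals lie below the median of the 59 genes. In WT iGB6 replicate 1, Racgap1 was above every IgHMOG iGBGFP library, and in replicates 2 and 3 it was below every one.

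The group difference was compared between the sexes with 1 female and 2 males per group. In the female pair 58 of the 59 genes were higher in WT iGB6, against 51.5% of all genes tested. For 50 of 59 both male WT iGB6 libraries were above both male IgHMOG iGBGFP libraries, against 26.5% of all genes tested. All 34 called genes did both, but they were selected by the fit on these same libraries, so this is no separate check. Median log2 differences were 1.08 in females and 0.99 in males. For the interaction of group and sex limma called 0 of 9923 genes at the adjusted threshold. At an unadjusted p under 0.05 limma marked 1.49% of all genes and only Racgap1 among the 59. Racgap1 differed by 0.87 in the female pair and by -0.35 in the males (limma adjusted p of the interaction over all genes = 0.9996).

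**Figure D4:**
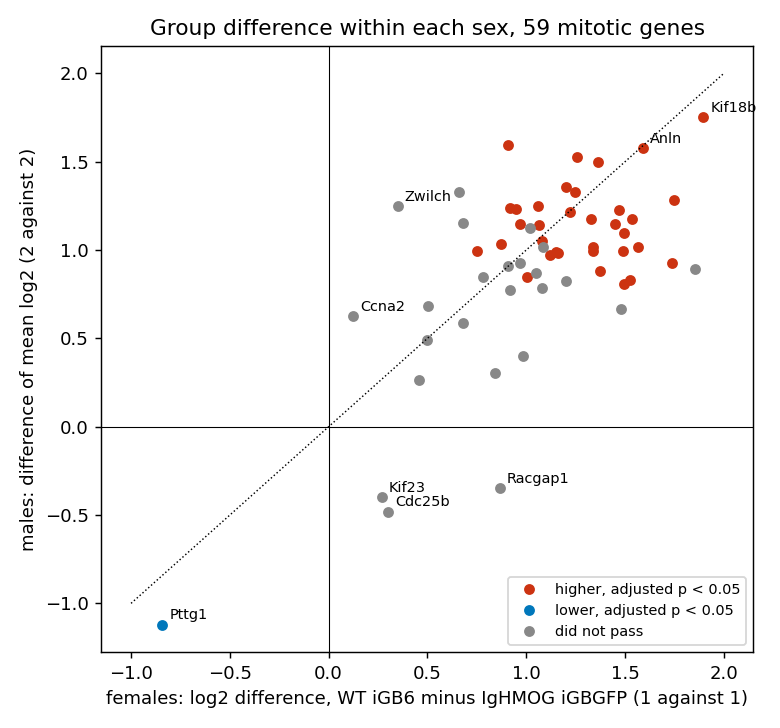
Log2 difference between the groups for each of the 59 tested genes, in the female pair (x axis, 1 library against 1) and in the males (y axis, 2 against 2), with the dotted line of equal difference. Red genes were called higher and blue lower in the fit over all 6 libraries, and grey did not pass. Most points lie in the upper right, Pttg1 lies in the lower left, and Kif23, Cdc25b and Racgap1 are positive in the females and negative in the males.

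Other cell cycle genes, in 9 lists of 153 genes outside the 60, cover the rest of the cycle. Of 24 S-phase genes 15 were higher and 0 lower, with a median log2 fold change of 1.03, close to that of the mitotic genes. Rrm2, a subunit of ribonucleotide reductase, stood at 816, 534 and 617 normalized counts in IgHMOG iGBGFP and 2453, 1852 and 1316 in WT iGB6 (log2 fold change 1.49, limma adjusted p = 0.00471). Tyms, which encodes thymidylate synthase, had a log2 fold change of 1.36. Neither overlapped between the groups. Among 26 other centromere and kinetochore genes 6 were higher and 0 lower (median 0.87), led by the RZZ subunit gene Kntc1 at 1.78 and the MIS12-complex gene Dsn1 at 1.34. Of 23 other spindle and cytokinesis genes 3 were higher and 0 lower (median 0.75), with Dlgap5 at 1.19 and Depdc1b at 1.21, and of 11 centriole and centrosome genes 2 were higher and 0 lower (median 0.52), Cenpj at 1.09 and Stil at 1.56.

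Of 16 genes of the anaphase-promoting complex and its regulators 1 was higher and 0 lower, with a median log2 fold change of 0.29. The called gene was Fbxo5, at 0.99, whose product EMI1 inhibits the complex, and the subunit gene Anapc5 had 0.64 and did not pass (limma adjusted p = 0.0610). Of 15 cohesin and condensin II genes 3 were higher and 0 lower (median 0.28): the condensin II genes Ncapd3 at 1.05 and Ncapg2 at 1.33 and the cohesin acetyltransferase gene Esco2 at 1.25. Among 10 other mitotic entry regulators and 6 genes of the B-Myb, FoxM1 and MuvB regulators, which drive transcription of mitotic genes, limma and edgeR called 0, with medians of 0.79 and 0.42. At an unadjusted limma p under 0.05 there were 6 and 1, and DESeq2 called 2 and 0. The smallest p-values there belonged to Gtse1 (1.19, limma adjusted p = 0.0660) and Ccnf (0.95, limma adjusted p = 0.0871), and to Rbbp4 (0.41, limma adjusted p = 0.146) and Lin54 (0.50, limma adjusted p = 0.257).

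G1 regulators went both ways. Of 11 tested 2 were higher and 2 lower, with a median log2 fold change of -0.26. Ccne2, the cyclin E2 of S-phase entry, stood at 100.2, 92.3 and 109 normalized counts in IgHMOG iGBGFP and 339, 280.2 and 281 in WT iGB6 (log2 fold change 1.57, limma adjusted p = 0.00471), and its partner kinase gene Cdk2 at 982, 602 and 631 against 1671, 1158 and 1580.4 (1.01, limma adjusted p = 0.0174). Neither overlapped between the groups, and WT iGB6 replicate 3 was not set apart in either. Ccnd1, the cyclin D1 of G1 progression, fell from 43.0, 80.2 and 97.0 to 19.0, 46.6 and 27.0 (log2 fold change -1.24, limma adjusted p = 0.0389), with overlap. Cdkn1b, the CDK inhibitor p27, stood at 470.5, 588 and 489 against 274, 373 and 290.2, lower without overlap (log2 fold change -0.73, limma adjusted p = 0.0445).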

How the data were processed

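Per the file headers and labels, the authors counted reads per gene with featureCounts, and the deposited signal values are those counts divided by 1 size factor per library. Per the submitters' processing notes the tools were STAR 2.7.10b, DESeq2 2.11.40.7, featureCounts 2.0.3, cutadapt 4.4 and FastQC 0.74, with the builds mm10 and GRCm38. The sources used here do not give the annotation or the strand setting. Per the labels' protocols, cDNA came from a low-input kit with 17 amplification cycles and no molecular identifiers are described, so the floors for a value of 0 cover counting error only. The intervals of fold changes rest on the spread between mice. Dividing by each library's step gave whole reads for 100% of values within 0.001, with totals of 5196339 to 7564254 reads per library and 14816 to 17013 genes detected. A value of 0 allows up to 3 reads.

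The authors' second deposited table holds, without a header, log2 fold changes, their errors, Wald scores, p-values and adjusted p-values. Its column order was read from the values.

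Symbols and coordinates came from GENCODE M21 (GRCm38), and 42548 of 43432 identifiers matched. Of the 60 mitotic genes 20 share exonic bases with another annotated gene, 18 of them with one on the opposite strand, and 4 have a pseudogene named after them (Ccnb1, Ccnb2, Kif22 and Kif4), so their counts are uncertain to that extent.

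The test was limma 3.58.1 in R 4.3.3 (eBayes with trend) on log2(normalized count + 1), which understates low genes, for 9923 genes with a mean of at least 10, with group and sex, two-sided. On simulated data it recovered 59% of 2-fold and 100% of 4-fold changes, with 3.05% false calls. The simulated counts had the same dispersion (variance beyond counting error) for every gene and no difference between the sexes. Changed genes were drawn only from the more abundant ones. The rates therefore hold for that setting and were not measured for these libraries or for low genes such as Kif18b. Because replicate 1 is the only female of each group, the sex term also takes up whatever else those libraries share. Alternatives were edgeR 4.0.16 and DESeq2 1.42.0 on the recovered reads, other filters, pseudocounts and scalings, library weights, a replicate block, males only, and leaving out each library.

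The 60 genes, the other lists, and the markers were chosen with earlier results of these data known. Values in every library are given for the 2 genes with the smallest p and the most abundant gene of each step, and, outside the 60, the 2 genes with the smallest p of each list are named. Others given in full (Cdk1, Plk1, Kif18b, Ube2c, Racgap1, the markers, and the higher and lower G1 genes) were chosen after their values were seen.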

Additional observations from a re-analysis of the deposited data

How the results depend on the processing

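The median log2 fold change of the mitotic genes stayed between 0.84 and 1.29 over all alternatives, and no called gene changed sign, but the number of calls moved. Without the sex term limma called 10 genes in all (6 higher, 4 lower), 0 mitotic genes in either direction and 0 in each of the 8 steps. With males only it called 134 (62 higher, 72 lower) and 4 mitotic genes higher, 1 each in mitotic entry, kinetochore, spindle and cytokinesis and 0 in the other 4 steps, and 0 lower. Scaling by total reads, chosen after seeing the data, called 82 genes higher, 6 of them mitotic: 2 in mitotic entry, 1 each in kinetochore, checkpoint, spindle and cytokinesis, and 0 in condensation, passenger complex and anaphase onset. More genes were called with library weights (1443, 731 higher and 712 lower, with 51 mitotic genes higher, 11 in the kinetochore step, 4 in checkpoint, 4 in passenger complex and 2 in anaphase onset), without a filter (1079, 459 and 620, with 4 in checkpoint and 2 in anaphase onset) and with DESeq2 (951, 422 and 529, with 4 in checkpoint). The authors' deposited table has 410 higher, with 4 in checkpoint. Leaving out 1 library gave 4 to 1083 calls (3 to 410 higher, 1 to 673 lower), 0 to 47 mitotic genes higher, 0 to 1 lower, and by step 0 to 7, 0 to 6, 0 to 9, 0 to 4, 0 to 4, 0 to 10, 0 to 2 and 0 to 5 for the 8 steps from mitotic entry to cytokinesis. These fits have fewer samples. With the sex term, leaving out 1 female leaves the other female without a counterpart, so both such fits estimate the group difference from the males alone. They are not separate from the fit with males only. Otherwise the cause was not tested. The labels give both groups replicates 1 to 3. Deviations of same-numbered libraries correlated at 0.48, 0.35 and 0.04 across genes. For WT iGB6 replicates 1 and 2 the same-numbered library was the best match. WT iGB6 replicate 3 correlated weakly with all, at most at 0.085 with IgHMOG iGBGFP replicate 1. The labels do not state a pairing and these values do not settle it, so the main fit did not pair the mice. With the replicate block limma called 1001 genes (435 higher, 566 lower), 41 mitotic genes higher and 2 of the 4 genes of anaphase onset.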

Other observations

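Several other myeloid and lymphoid markers differed beside the mitotic genes. Of 7 monocyte markers 3 were lower in WT iGB6 and 0 higher: Fn1 with a log2 fold change of -2.55, Cx3cr1 with -1.87 and Nr4a1 with -1.30. Of 9 mature neutrophil markers Cxcr2, the receptor that draws neutrophils out of the marrow, was lower at -0.90, and 0 were higher. The median log2 fold change of these 9 was 0.12, with 5 of them above 0. Among 6 early progenitor markers tested, the stem cell factor receptor gene Kit was higher at 1.04, and Flt3 and Gata2 were lower at -1.98 and -2.87. Kit stood at 52.2, 30.2 and 49.0 normalized counts in IgHMOG iGBGFP and 93.7, 86.0 and 86.6 in WT iGB6, with no overlap and with WT iGB6 replicate 3 level with the others. The cytotoxic granule gene Nkg7 was higher at 1.36, the only call among 5 natural killer cell markers tested (median 0.07). The plasma cell factor gene Irf4 was lower at -2.55, the only call among 3 plasma cell markers tested (median -0.64). In the platelet list Ppbp was higher at 1.98 and Itga2b lower at -1.32. These calls are from the same limma fit with Benjamini-Hochberg adjustment.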
